A study of Homo sapiens with 21 samples.

Results

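The M band is the line of crosslinks that holds myosin thick filaments in register at the middle of the sarcomere, and cardiac myosin-binding protein C decorates the thick filament on either side of it. Transcripts of 7 genes that encode such proteins were followed through the differentiation of human PGP1 iPSCs, an established line, into cardiomyocytes (CMs). The genes were MYOM1, MYOM2, MYOM3, OBSL1, LRRC39, MYBPC3 and CMYA5, and every transcript carrying one of these gene names in the 6 deposited Sleuth tables was taken. Of the 7 genes, 6 had a listed transcript and MYOM3 had none. They gave 22 transcripts, of 21537 transcripts and 11851 genes listed in the series. Poly-A RNA had been sequenced from wild-type cells with 3 libraries at each of 5 stages, namely iPSC, M (mesoderm), CMes (mesoderm fated to the heart), CP (cardiac progenitors) and CM. CMs of 2 UBE2B-/- PGP1 lines, made in separate editing experiments from picked iPSC colonies and lacking the E2 enzyme of the complex that places ubiquitin on histone H2B, gave 3 further libraries each. Their UBE2A gene, which encodes a very similar E2 enzyme, was not edited. The protocol of the study selected CMs in lactate after the onset of beating and did not limit this to a genotype. The mutant CMs that were sequenced came from beating cultures, and each replicate came from a plate started at a different time. Lactate selection came with the CM stage, so from CP to CM it cannot be told apart from the stage.

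Myomesins, encoded by MYOM1, MYOM2 and MYOM3, bridge neighboring thick filaments and bind titin. Obscurin-like 1 (OBSL1) ties titin to myomesin and also works outside muscle, in the 3M complex with CUL7 and CCDC8. LRRC39 (myomasp) is an M-band protein that binds myosin heavy chain, MYBPC3 sets how myosin heads meet actin, and CMYA5 (myospryn) is a very large muscle protein that binds titin and desmin.

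The tables hold no value per library. For each transcript they give the mean and the variances of the natural log of estimated counts plus 0.5, from which the size of the difference between group means, its standard error (SE) and the SD within groups were worked out, all given on the log2 scale. Group levels are estimated counts, back-transformed from mean logs, and each table has its own scale. A direction was read only where 2 tables shared a stage and just one choice of sign gave that stage the same level in both. Transcripts were listed by the study at a q-value of up to 0.05, so a difference was a condition of being seen, and a transcript that is not listed may be low, constant or variable. No p-value is given here, and which of several transcripts of a gene a read belongs to is itself an estimate.

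Cell type markers were compared with the stage labels. TBXT, a mesoderm marker, was higher at M than at iPSC (0.520 and 529 estimated counts for ENST00000366876.6) and lower at CMes, and MESP1, which marks early cardiac mesoderm, was higher at CMes than at M (1.63 and 167 for ENST00000300057.4) and lower at CP. From CP to CM all 5 cardiomyocyte markers (TNNT2, ACTN2, NKX2-5, PLN and RYR2) were higher, with a median log2 difference of 5.67. The pluripotency markers with a direction, 3 of 5, were lower, as were 3 of 4 endoderm markers. At the same step 2 of the 3 mesenchymal markers with a direction were lower (median -2.02), the endothelial marker KDR was lower (-3.79) and both smooth muscle markers with a direction were higher (median 2.16). The targeted gene gave no check of the mutant label, since 1 UBE2B transcript (ENST00000499038.2) was listed, for line 1, and its direction could not be recovered.

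Most member transcripts were listed at the CP to CM transition. Of 18 listed member transcripts, 5 had a recovered direction and all 5 were higher in CMs, beside 46.2% of the 4364 transcripts of all genes whose direction was recovered. A direction needed a listing in a second comparison. For MYOM1 and MYBPC3 that was the comparison of UBE2B-/- with wild-type CMs alone, while CMYA5 and OBSL1 were also listed from CMes to CP. The 46.2% mixes both routes, and the other listed member transcripts may go either way. Their median log2 difference was 8.43, against -0.62 over those 4364. Regardless of direction, the median size was 5.44 for the 18 member transcripts and 1.83 for all 12982 listed.

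MYOM1 had the highest level among the listed myomesin transcripts. Its longest listed transcript, ENST00000356443.8, had a mean of 53.4 estimated counts at CP and 18646 at CM, a log2 difference of 8.43 (SE 0.74, 3 libraries per stage). The SD within stages was 0.90, so the stages were far apart against the replicate spread. The transcript ENST00000261606.11 went with it, from 14.9 to 5289 estimated counts, with a log2 difference of 8.43 (SE 0.82). MYOM1 lies on the minus strand of chromosome 18 of hg38, from 3066807 to 3219968. The annotated transcripts have 38 and 37 exons and 1685 and 1589 codons, and inside the gene they differ by 1 coding exon of 288 bases, chr18:3129232-3129519, or 96 codons. This exon encodes the elastic EH segment that marks the embryonic heart form of myomesin, and it is shown because it tells the forms apart. It reads 5′ to 3′ on the minus strand, in capitals, with 6 bases of each flanking intron in lower case.
MYOM1 exon: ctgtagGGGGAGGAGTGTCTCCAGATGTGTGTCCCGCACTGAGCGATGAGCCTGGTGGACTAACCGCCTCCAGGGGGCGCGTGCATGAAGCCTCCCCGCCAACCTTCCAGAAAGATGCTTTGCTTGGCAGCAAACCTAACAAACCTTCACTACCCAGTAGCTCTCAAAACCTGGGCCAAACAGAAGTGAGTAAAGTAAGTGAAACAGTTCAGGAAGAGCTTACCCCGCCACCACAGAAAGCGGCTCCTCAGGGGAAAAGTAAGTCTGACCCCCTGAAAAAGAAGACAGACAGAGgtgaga

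Per kilobase of transcript, the form with the exon made up 76.4% of the sum of both forms at CP and 76.1% at CM. The ratio of the form with to the form without the exon was 3.24 at CP and 3.18 at CM, so both forms were higher in CMs by nearly the same factor. The number per library was not at hand and the ratio has no error of its own. For both forms the technical variance, estimated from resampled reads, was larger than the residual variance within stages (0.516 and 0.392 in squared natural-log units for the form with the exon). With the moderated variance the SEs of their CP to CM differences were 0.86 with and 1.30 without the exon, in place of 0.74 and 0.82. The other 4 MYOM1 transcripts were short, 0.545 to 0.754 kb in the annotation. Their higher stage means were between 14.3 and 308 estimated counts and their lower ones below 1. The most abundant of them, ENST00000582016.1, is a retained-intron transcript that overlaps the EH exon, with 0.841 estimated counts at one stage and 308 at the other. The direction of these 4 could not be recovered.

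MYOM2, the myomesin of adult fast muscle and heart, was barely seen. Its transcript ENST00000262113.9 was listed at 1 of the 4 transitions, from CP to CM, with 0 estimated counts in all 3 libraries of one stage and a mean of 42.6 in the other. Which stage was the higher could not be recovered. Even the higher of these levels was far below the 18646 estimated counts of MYOM1 in CMs, for transcripts of similar length (5.008 and 5.707 kb). MYOM3 was not listed for any comparison.

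LRRC39 was listed from CP to CM alone. ENST00000370137.5 had means of 5.59 and 533 estimated counts at the 2 stages, a log2 size of 6.45 (SE 0.66), and ENST00000342895.7 had 10.2 and 102, a size of 3.25 (SE 0.69). The within-stage SDs were 0.80 and 0.84, and both transcripts code for the same 335 codons. Both sizes were several times their SE, but neither direction could be recovered, because LRRC39 was in no neighboring table.

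MYBPC3 showed the largest difference of the members with a direction. ENST00000545968.5, on chromosome 11 from 47331406 to 47352702 with 35 exons and 1274 codons, had a mean of 7.69 estimated counts at CP and 31327 at CM. Its log2 difference was 11.90 (SE 2.09), and the SD within stages was 2.56, the widest of the member transcripts. In the fit of wild-type and UBE2B-/- CMs, which shares the 3 wild-type CM libraries, the SD of the same transcript was 0.46. A fold change from a mean of 7.69 estimated counts is loosely fixed, but the difference was larger than the within-stage SD. The other MYBPC3 transcripts were far less abundant. ENST00000256993.8 had 0.878 and 105 estimated counts, and ENST00000544791.1, annotated for nonsense-mediated decay, had 0 and 23.8, with no direction for either.

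CMYA5 was the one member besides OBSL1 that was listed before the CP to CM transition. ENST00000446378.3, a transcript of 12.888 kb and 4069 codons on chromosome 5 from 79689836 to 79800222, went from 52.7 estimated counts at CMes to 334 at CP. The log2 difference was 2.65 (SE 0.33) with an SD within stages of 0.40. From CP to CM the same transcript went from 296 to 5663 estimated counts, a log2 difference of 4.26 (SE 0.46, SD 0.56). The retained-intron transcript ENST00000506603.5 had 37.4 and 365 estimated counts at the CP and CM stages, in an order that could not be recovered.

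**Figure D1:**
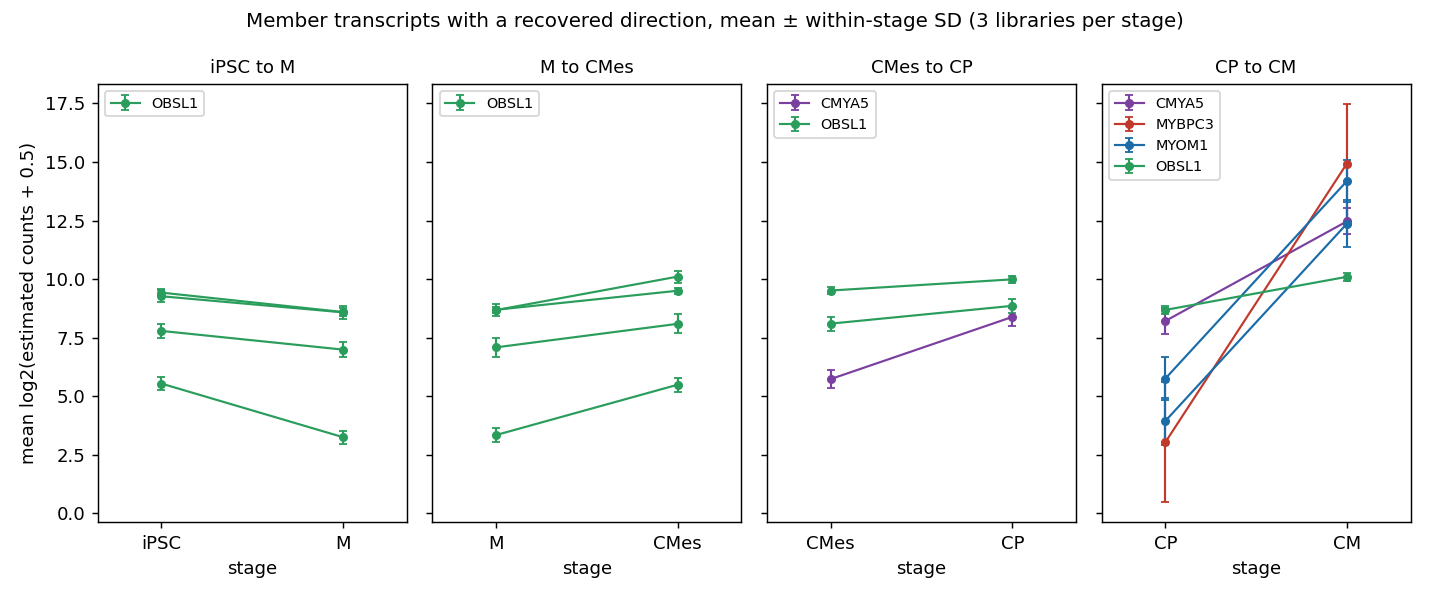
Means of log2(estimated counts + 0.5) for the member transcripts with a recovered direction, 1 panel per transition and 1 line per transcript, with bars of 1 within-stage SD (3 libraries per stage). OBSL1 was lower at M than at iPSC and higher at each later stage, while MYOM1 and MYBPC3 stand low at CP and high at CM, with MYBPC3 carrying the widest bars (SD 2.56).

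OBSL1 was the one member listed at all 4 transitions, with 5, 5, 2 and 4 transcripts. From iPSC to M, 4 of its 5 transcripts had a direction and all 4 were lower at M, beside 47.3% lower among the 1413 transcripts of all genes with a direction. The most abundant, ENST00000289656.3, went from 687 to 386 estimated counts, and its log2 value fell by 0.83 (SE 0.13, SD 0.16). The transcripts ENST00000603926.5 and ENST00000404537.6 differed by -0.69 (SE 0.22) and -0.80 (SE 0.25), and the retained-intron transcript ENST00000462385.1 by -2.29 (SE 0.23). From M to CMes the same 4 transcripts were all higher, beside 56.8% of 3098. ENST00000289656.3 went from 413 to 726 estimated counts, a log2 difference of 0.81 (SE 0.10), and ENST00000603926.5 from 410 to 1104, a difference of 1.43 (SE 0.21). The drop at M and the recovery at CMes were thus of similar size for ENST00000289656.3, and the 2 tables share the M libraries.

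From CMes to CP all 3 listed member transcripts were higher, beside 55.4% of 4616, and 2 of them were OBSL1. ENST00000289656.3 went from 731 to 1017 estimated counts (log2 difference 0.48, SE 0.12) and ENST00000404537.6 from 274 to 464 (0.76, SE 0.25). From CP to CM, ENST00000404537.6, the transcript with the longest coding sequence (21 exons and 1896 codons, chromosome 2 from 219550728 to 219571539), went from 411 to 1097 estimated counts, a log2 difference of 1.41 (SE 0.14, SD 0.18). This is the smallest CP to CM difference of the members with a direction. The transcript ENST00000373876.5, with 20 exons and 1804 codons, had 0 estimated counts in all 3 libraries of one of the CP and CM stages and a mean of 927 in the other. Its SD was 0.19. It was listed nowhere else, so the stage that lacked it could not be recovered. ENST00000373873.8 had 184 and 377 estimated counts and the retained-intron transcript ENST00000465149.1 had 48.0 and 382, again with no recovered direction. The listing of ENST00000373873.8 for both UBE2B-/- lines, given below, goes with a lower level at CM.

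**Figure D2:**
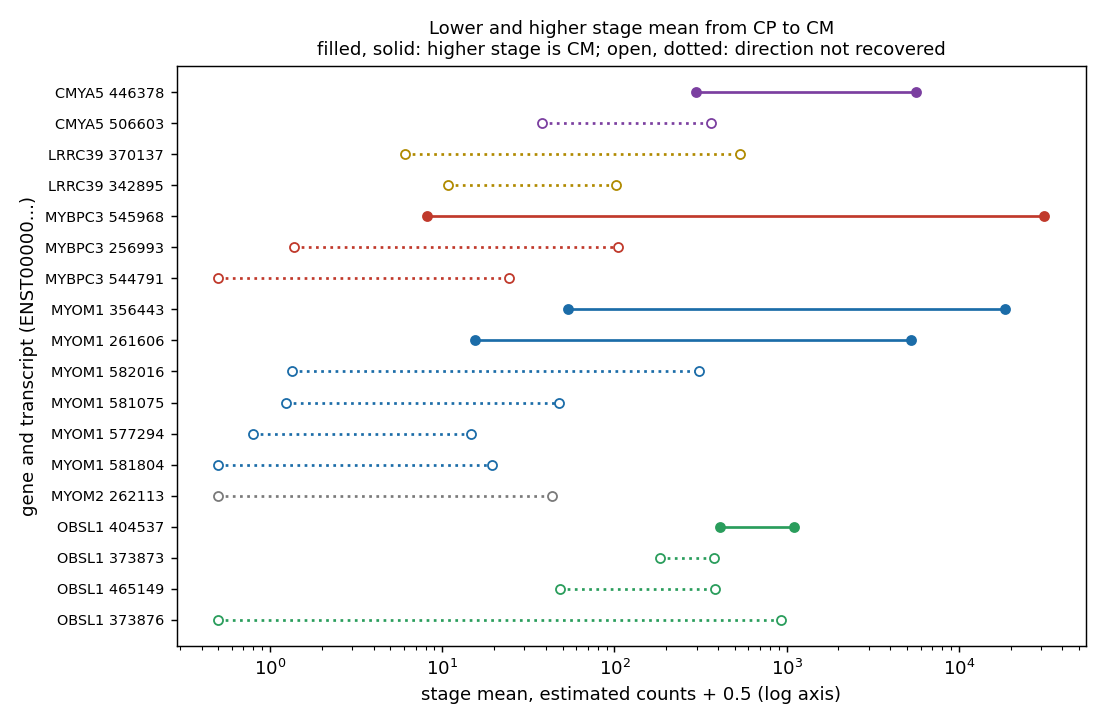
Lower and higher stage mean of all 18 member transcripts listed from CP to CM, as estimated counts + 0.5 on a log axis. Filled points joined by solid lines are the 5 transcripts known to be higher at CM, and open points joined by dotted lines are the 13 whose direction could not be recovered. MYBPC3 ENST00000545968 spans the widest range, from 7.69 to 31327 estimated counts.

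Among the leading transcripts with a direction from CP to CM, 1 per gene, the order of levels at CP was the reverse of that at CM. Per kilobase of transcript, OBSL1 (ENST00000404537.6) had the highest level at CP with 67.3 estimated counts, then CMYA5 with 23.0, MYOM1 with 9.36 and MYBPC3 with 1.82. At CM the order was MYBPC3 with 7429, MYOM1 with 3267, CMYA5 with 439 and OBSL1 with 180. At CP the step from MYOM1 to MYBPC3 (2.36 on the log2 scale) was within the larger SD of that pair, 2.56. At CM the step from MYBPC3 to MYOM1 (1.19) was within it too, but this SD is pooled over CP and CM. The other steps were 1.29 to 2.89 and larger than either SD of the pair. In the line fit the wild-type levels were carried over with 1 offset, so the step from MYBPC3 to MYOM1 there is the same 1.19 by construction. It is not a second measurement. Against the SDs of that fit, pooled over wild type and both lines, it was larger than the larger of the pair, 0.59. The place of OBSL1 rests on that transcript. ENST00000289656.3, which is not listed from CP to CM, stood at 447 per kilobase at CP in the CMes to CP table, on the scale of that table, and its level at CM is not known here. The levels use lengths from GENCODE 44, in which MYOM1 and MYBPC3 carry a later version of the transcript than in the tables.

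The sequences upstream of the start sites of the 3 members that were higher at CM and lower in the UBE2B-/- lines are shown because these members had the same pair of directions. They are the 250 bases before the RefSeq start, on GRCh38.p14, for MYBPC3 at chr11:47352703-47352952 (minus strand), MYOM1 at chr18:3219969-3220218 (minus strand) and CMYA5 at chr5:79689586-79689835 (plus strand). Capitals mark 2 motifs on either strand. One is AGATAA, which the family of zinc-finger factors around GATA4 can bind, and the other is CTANNNNTA, the frame of a MEF2 site.
MYBPC3 upstream: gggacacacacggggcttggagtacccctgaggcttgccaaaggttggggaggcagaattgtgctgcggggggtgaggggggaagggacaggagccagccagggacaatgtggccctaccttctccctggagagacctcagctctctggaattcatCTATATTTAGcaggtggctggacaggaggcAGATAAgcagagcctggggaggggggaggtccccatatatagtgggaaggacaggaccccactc
MYOM1 upstream: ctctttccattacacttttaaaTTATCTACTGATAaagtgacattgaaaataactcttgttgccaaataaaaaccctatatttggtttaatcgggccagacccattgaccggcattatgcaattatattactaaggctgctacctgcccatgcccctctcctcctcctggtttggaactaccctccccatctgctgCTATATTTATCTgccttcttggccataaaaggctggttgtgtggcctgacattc
CMYA5 upstream: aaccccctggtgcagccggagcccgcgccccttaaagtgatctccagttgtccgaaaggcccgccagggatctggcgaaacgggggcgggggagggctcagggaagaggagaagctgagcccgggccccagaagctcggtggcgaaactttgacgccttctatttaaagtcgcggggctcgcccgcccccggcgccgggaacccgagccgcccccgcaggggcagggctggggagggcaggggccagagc

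AGATAA began 64 bases before the start of MYBPC3 and at 2 places, 228 and 48 bases before it, in MYOM1. CTANNNNTA was matched at 2 overlapping positions before MYBPC3, 94 and 93 bases from the start, which are the same letters read on both strands. Before MYOM1 it lay 224 and 54 bases from the start, each overlapping an AGATAA. Neither was found in the 250 bases before CMYA5. OBSL1 had CTANNNNTA at 2 overlapping positions and no AGATAA, and LRRC39 had 4 matches of CTANNNNTA and none of AGATAA. Of 35116 upstream windows of that length, 9.17% held AGATAA and 14.6% held CTANNNNTA. TATAAA, in 10.7% of windows, was present before LRRC39 alone of these 5 genes, CATTCC, in 11.9%, before none, and the E-box CANNTG, in 61.8%, before all 5. These are matches of letters, and no binding was measured here.

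In the UBE2B-/- CMs, transcripts of MYOM1, MYBPC3 and CMYA5 were lower than in wild type, and the 1 OBSL1 transcript with a recovered direction, of 3 listed, was higher. Both line tables came from 1 fit of 9 libraries, and the 1992 transcripts listed for both lines had equal means and variances in both tables. The mean of the 2 lines could therefore be set against wild type, but not each line by itself. Of 7 listed member transcripts 5 had a direction, 4 lower in the lines and 1 higher, beside 62.3% lower among 1497 transcripts of all genes. The median log2 difference was -1.48 for those 5 and -0.77 for the 1497. In bulk RNA, fewer CMs in the culture and less RNA of a gene per CM cannot be told apart.

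CMYA5 had the largest difference. ENST00000446378.3 averaged 6538 estimated counts in wild-type CMs and 1264 in the lines, 19.3% of wild type, a log2 difference of -2.37 (SE 0.29, 3 against 6 libraries, SD within groups 0.41). The lines were 0.42 apart (SE 0.34), so the gap between them was close to its error. MYBPC3 ENST00000545968.5 had 36167 estimated counts in wild type and 14032 in the lines, 38.8% of wild type, with a log2 difference of -1.37 (SE 0.33) and a gap between lines of 0.20 (SE 0.38). Both transcripts were listed for both lines.

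MYOM1 was lower in both forms. ENST00000356443.8, with the EH exon printed above, had 21527 estimated counts in wild type and 7739 in the lines, a log2 difference of -1.48 (SE 0.42). It was listed for line 2 and not for line 1, yet the lines were 0.03 apart (SE 0.48), so that listing alone did not separate them. ENST00000261606.11, without the exon, had 6106 and 1499 estimated counts, a log2 difference of -2.03 (SE 0.23), and was listed for both lines. Per kilobase the form with the exon made up 76.1% of the pair in wild-type CMs and 82.3% in the lines, a ratio of 3.18 and 4.66. The log2 differences of the 2 forms lay within the sum of their SEs of each other, and the change of ratio was not tested.

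OBSL1 ENST00000404537.6 had 1267 estimated counts in wild type and 2021 in the lines, 160% of wild type, a log2 difference of 0.67 (SE 0.18, SD 0.25). The gap between lines was 0.19 (SE 0.21). It was listed for line 2. ENST00000373873.8 was listed for both lines, and 2 values remain for it because its CP to CM direction is open to either sign. If it was higher at CM than at CP, the mean of the lines was 0.51 above wild type, with 2.41 between the lines. The lines would then lie on either side of wild type. If it was lower at CM, the mean of the lines was 2.05 above wild type, with 0.74 between them (SE 0.33 for either mean). For ENST00000603926.5, listed for line 2 with a mean of 1475 estimated counts, no direction could be given. LRRC39 and MYOM2 were not listed for either line.

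**Figure D3:**
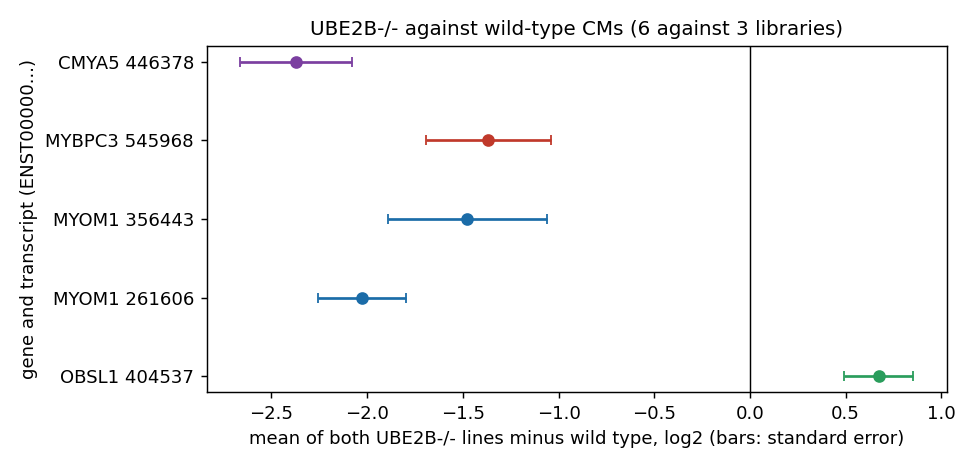
Mean of both UBE2B-/- lines minus wild-type CMs on the log2 scale for the 5 member transcripts with a recovered direction, with bars of 1 SE (6 against 3 libraries). The 4 transcripts of CMYA5, MYBPC3 and MYOM1 lie between -2.37 and -1.37, and OBSL1 lies at 0.67.

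For the leading transcripts alone, OBSL1 ENST00000404537.6 was below CMYA5 in wild-type CMs and above it in the lines. Per kilobase, wild-type CMs had 507 estimated counts of the CMYA5 transcript and 207 of the OBSL1 transcript, and the lines had 98.0 and 331. The step between them was 1.29 on the log2 scale in wild type and 1.76 the other way in the lines, both larger than the larger SD of the pair, 0.41. The other 2 listed OBSL1 transcripts have no single recovered level in either group, so this order is not one of whole genes. The leading transcripts of MYBPC3 and MYOM1 were at 3327 and 1356 in the lines, above the other 2 genes.

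Proteins that work beside the members were compared as 2 lists. The thick-filament and M-band list held 22 genes. From CP to CM 18 of them were listed and 12 had a direction. All 12 were higher at CM, beside 46.2% of 4364 transcripts of all genes, with a median log2 difference of 5.31. TTN, which spans from the Z disc to the M band, had 3107 estimated counts at CP and 124340 at CM for ENST00000460472.6 (log2 difference 5.32, SE 0.48). MYH7, the slow myosin heavy chain, went from 105 to 193260 (10.84, SE 0.27), and MYL2, the ventricular regulatory light chain, from 0 in all 3 CP libraries to 8867. MYH6, the fast atrial heavy chain, was already at 6515 estimated counts at CP and reached 61493 (3.24, SE 0.53).

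In the lines 11 of the 22 were listed and 10 had a direction, all 10 lower, beside 62.3% lower among 1497 transcripts of all genes. Their median was -1.60, with a range from -2.95 to -1.04. MYH7, MYL3 and CKM were not listed for either line. MYH6 and MYL7 were spoken for by lesser transcripts, with 502 and 6155 estimated counts in wild type. Their most abundant transcripts from CP to CM, ENST00000405093.8 and ENST00000223364.7, were not listed for either line. TTN ENST00000460472.6 had 143550 estimated counts in wild type and 18521 in the lines (-2.95, SE 0.60). TRIM63 and TRIM55, ubiquitin ligases of the M band, differed by -1.58 (SE 0.42) and -1.60 (SE 0.26), and SMYD1 and UNC45B, which help myosin fold and assemble, by -1.59 (SE 0.38) and -1.55 (SE 0.26). The differences of CMYA5, MYBPC3 and MYOM1 thus fell within the range of this list.

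The 3M complex is the other setting of OBSL1. Its scaffold CUL7 (ENST00000265348.7) was lower at CM, with 1312 estimated counts at CP and 803 at CM (-0.71, SE 0.11), and the substrate receptor FBXW8 was lower too, with 771 and 423 (-0.87, SE 0.22). In the lines CUL7 was higher, with 927 estimated counts in wild type and 1878 in the lines (1.02, SE 0.20). OBSL1 ENST00000404537.6 and CUL7 were thus both higher in the lines and differed in direction from CP to CM. From M to CMes and from CMes to CP they had the same directions. CUL7 was not listed from iPSC to M, where the OBSL1 transcript was lower. CUL7 was higher at CMes than at M (0.95, SE 0.08) and at CP than at CMes (0.96, SE 0.04), and FBXW8 was higher at both too (0.91, SE 0.15, and 1.03, SE 0.15). CCDC8 was listed from CP to CM with no recovered direction.

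Other cell type markers moved in the same comparison of lines with wild type. All 4 cardiomyocyte markers listed there (TNNT2, ACTN2, PLN and RYR2) were lower, with a median of -1.84 and a range from -2.37 to -1.63, and their 17 transcripts with a direction summed to 169630 estimated counts in wild type and 48587 in the lines. Of the 5 mesenchymal markers 4 were listed and 3 had a direction, all 3 higher. COL3A1 (ENST00000304636.7) had 7396 estimated counts in wild type and 132020 in the lines (4.16, SE 0.69), LUM (ENST00000266718.5) 473 and 3004 (2.67, SE 0.83) and COL1A1 (ENST00000507689.1) 156 and 398 (1.34, SE 0.35). The most abundant listed COL1A1 transcript, ENST00000225964.9, with a mean of 46272 estimated counts, had no recovered direction. The 5 mesenchymal transcripts with a direction summed to 10115 estimated counts in wild type and 156380 in the lines, mostly from COL3A1. Of the other lists, 1 endothelial marker, KDR, was higher (1.57), 1 smooth muscle marker, CNN1, was lower (-1.85), and no pluripotency, mesoderm or endoderm marker was listed. The part of cell composition in the member differences was not tested. Mutant cultures were also plated more densely, and this cannot be told apart from the genotype.

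**Figure D4:**
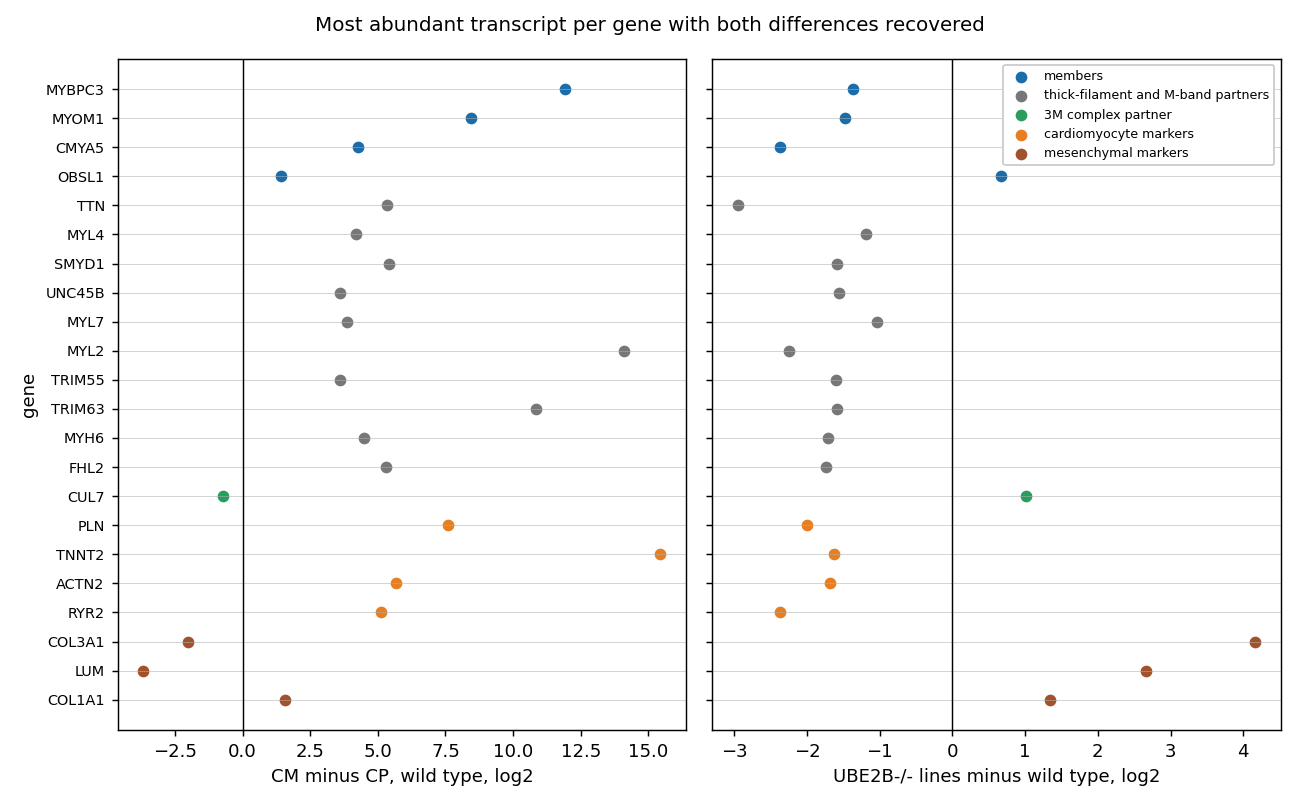
Log2 difference between CM and CP in wild type (left) and between the UBE2B-/- lines and wild type (right) for the most abundant transcript of each gene with both differences recovered. Both panels use the wild-type CM libraries, and the left values of MYL2 and TNNT2 rest on a CP mean of 0 and depend on the added 0.5. MYBPC3, MYOM1 and CMYA5 lie right of 0 on the left and left of 0 on the right, with the partners and cardiomyocyte markers, and OBSL1 (ENST00000404537.6) is right of 0 in both, at 1.41 and 0.67.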

How the data were processed

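RNA was poly-A selected and sequenced from 15 wild-type libraries (5 stages, 3 each) and 6 UBE2B-/- CM libraries (2 lines, 3 each). Reads were trimmed (FASTX-Toolkit), assigned to hg38 transcripts (kallisto 0.45.0) and compared in Sleuth 0.30.0 by the authors. The authors deposited 6 tables with, per transcript, the mean of natural log estimated counts (plus 0.5) and 5 variance columns, of which total, technical, residual and moderated variance, scores in squared natural-log units, were used. The tables also hold the authors' effect estimates with their standard errors, p-values and q-values, which were not used or printed. The depth per library is unknown, and there are 0 columns of values per sample.

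The size of a difference followed from the total variance less the residual variance. For 3 against 3 libraries this is by arithmetic the same quantity as the size of the effect estimate that was not used, recovered from other columns, and not an independent measurement of it. Between stage tables, a direction was kept when only that sign gave the shared stage equal means within 0.05 (natural log), after a constant offset per pair of tables. The line fit gives no wild-type mean of its own. There a direction was kept when only that sign put the wild-type mean within the limit set by the variance between groups, plus 0.05. No recovered direction conflicted with another (0 conflicts), and 371 of 371 CP to CM directions recovered by both routes were equal. Lines were set against wild type with the wild-type mean of the CP to CM table, shifted by 0.144. The steps were tested on simulated data with 2 nearly equal lines and offsets added on the log scale. Recovery for lines that lie far apart, or for low counts on differing scales, was not tested. Python 3.11.15, numpy 2.4.6 and pandas 2.3.3 were used, with GENCODE 44 for lengths and RefSeq (GRCh38.p14) for upstream sequences. Annotation was matched by transcript identifier without version for 21 of 22 member transcripts.

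A gene was spoken for by its listed transcript with the highest mean, the partner and marker lists were given by counts and medians over the most abundant transcript with a direction, and the 5 genes of most like pattern were named per member. The members and lists were chosen with earlier results of these data known. Alternatives changed the tolerance, the minimum level, the summing of transcripts, the pseudocount, the variance and the offset. No test was run, because no value per library is held.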

Additional observations from a re-analysis of the deposited data

How the results depend on the processing

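The counts of member transcripts with a direction, higher at CM and lower in the lines, and the 8 differences of CMYA5, MYBPC3, MYOM1 and OBSL1, kept their direction under all 9 alternatives, and each stayed within the within-group SD (differences) or within 1.5 times (counts) of its reported value. The tolerance, the minimum level and the choice of variance do not enter the size of a difference, so those settings could not alter it. The widest tolerance, 0.15, left 14 stage directions of member transcripts in place of 16. A tolerance of 0.005 and an offset taken from the middle of the bounds were chosen after seeing the data. Those bounds, 0.1432 from below and 0.1429 from above, cross by less than 0.0003, so no single offset met every transcript exactly. The moderated variance raised the SE of the CP to CM difference by 1.16 times for MYOM1 and 1.21 times for OBSL1 and left the others as they were. Leaving out replicates was not run, since there are no values per library. No paired analysis was possible because the tables carry no replicate values. Depth limits cannot be given for the same reason, and stage means under about 10 estimated counts, such as MYBPC3 at CP, are weakly fixed.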

Other observations

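Among 1173 genes whose leading transcript had both differences recovered, those nearest to each member in the plane of the CM minus CP and the lines minus wild type log2 differences were listed, 5 per member, as a description over 2 differences that share the wild-type CM libraries. Nearest to MYBPC3 (11.90 and -1.37) were MLIP (11.88 and -1.72), PALLD (12.22 and -1.79), HSPB3 (12.31 and -1.98), DMD, which encodes dystrophin (12.16 and -2.11), and LRRC10 (11.18 and -1.95). Nearest to MYOM1 (8.43 and -1.48) were FBXL17 (8.55 and -1.36), CACNB2, a subunit of the cardiac calcium channel (8.46 and -1.75), CYP2J2 (8.35 and -1.90), SLC25A3, the mitochondrial phosphate carrier (8.47 and -1.92), and SNX6 (8.09 and -1.18). Nearest to CMYA5 (4.26 and -2.37) were AC022916.3 (4.22 and -2.26), DGKI (4.58 and -2.14), NAV1 (4.15 and -1.93), FERMT2 (3.88 and -1.95) and STARD4 (4.22 and -1.79). Nearest to OBSL1 (1.41 and 0.67) were PLA2G15 (1.52 and 0.59), SIL1 (1.27 and 0.65), RELA (1.27 and 0.59), CUEDC1 (1.59 and 0.62) and CPTP (1.12 and 0.73). The SE of the CM minus CP difference was 2.09 for MYBPC3 and 0.74 for MYOM1, more than the distance to any gene named for them. For CMYA5 and OBSL1 the distances were of the order of the SEs. Which genes are nearest is thus loosely fixed.

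Some thick-filament and M-band partners differed before the CM stage. TTN ENST00000360870.9, which encodes a short form of titin, was lower at M than at iPSC (log2 difference -3.29, SE 0.62) and higher at CMes than at M (4.97 and 43.1 estimated counts, 2.99, SE 0.60), the same pair of directions as OBSL1. CKM, the muscle creatine kinase, was higher at CMes than at M (1.78 and 79.3 estimated counts, 5.13, SE 0.33), lower at CP than at CMes (79.8 and 12.9, -2.58, SE 0.62) and higher again at CM (11.4 and 2275, 7.58, SE 0.66). MYL4 and MYL7, the atrial light chains, were higher at CMes than at M, with 0 in all 3 M libraries and 485 estimated counts at CMes for MYL4 and 1.33 and 596 for MYL7.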
